A study of Danio rerio with 2 samples.

Results

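The cytochrome P450 family was followed in zebrafish larvae at 5 days post fertilisation (dpf). Its members were the genes whose symbol in the deposited expression table begins with cyp and a digit, except the sterol synthesis gene cyp51, which gave 87 of the 33733 genes in the table. Homozygous lri25 mutants (lri25-/-) were set against wild-type siblings from the same clutches, both of the AB/TL strain, and each genotype was represented by 1 library made from 20 pooled whole larvae. The gene affected by lri25 is not named in the labels used here, so no transcript could serve as a check of the genotypes. With 1 library per genotype no test was possible and no difference has a replicate check, so every value describes these pools.

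Cytochromes P450 are heme enzymes that insert an oxygen atom into fat-soluble molecules. Those in the endoplasmic reticulum take their electrons from P450 reductase, and those in mitochondria take them from a ferredoxin. Some members have a single natural substrate class, among them retinoic acid, vitamin D, cholesterol, bile acid precursors and steroid hormones, whereas families 1 to 3 hold many broad oxidases of the liver, gut and other barrier tissues that act on foreign chemicals and on fatty acids. Several P450 genes are textbook readouts of the receptors for their substrates, such as cyp26a1 for retinoic acid, cyp24a1 for active vitamin D and cyp1a for ligands of the aryl hydrocarbon receptor.

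Levels are given in FPKM, a count of fragments corrected for gene length and library depth, a unit read from the layout and values of the table, which does not name it. The table calls its libraries HKWT and HKMT, which were read as wild type and mutant, and every direction given here rests on that reading. Differences are log2((mutant FPKM + 1)/(wild-type FPKM + 1)) unless a plain FPKM ratio is named, and a gene was counted as at least 2-fold apart when this difference reached 1 in either direction. A gene was compared when its level reached 1 FPKM in either library or both. Of the 87 members 66 were compared. Of the other 21, 8 were listed at 0 in both libraries and 13 were above 0 and below 1 FPKM. An exact 0 in such a table can be a failed estimate. The members were spread over 18 chromosomes and 2 unplaced scaffolds, and 48 of them lay in 8 clusters of at least 3 neighbouring members.

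Of the P450 genes compared, 3 of 4 that break down or convert retinoids, 2 of 3 that activate or inactivate vitamin D, and 4 of 9 cyp2aa genes of a cluster on chromosome 23 were at least 2-fold higher in the mutant library, whereas cyp1a, cyp4t8, cyp2n13 and 3 weakly expressed cyp2k and cyp2x genes were at least 2-fold lower. Of the 66 members compared, 9 reached a 2-fold higher level in the mutant library and 6 reached a 2-fold lower one. Over all 20256 genes that entered the comparison these shares were 6.08% and 7.12%. The corresponding shares of the members were 13.6% and 9.09%. The median difference of the members was -0.09, with quartiles of -0.41 and 0.36, beside a median of -0.01 for all genes. With a pseudocount of 5 FPKM in place of 1, which weighs low genes less, 5 members were higher and 1 was lower. Of all 20256 genes 296 were then higher and 361 lower.

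How often genes lie 2-fold apart depends on their level, so the members were also read within level classes. Among members whose higher value lay between 5 and 20 FPKM, 6 of 31 were at least 2-fold higher and 2 lower. Of all genes in that class 4.96% were higher and 5.98% lower. Between 20 and 100 FPKM, 2 of 13 members were higher and 1 lower, against 4.53% and 4.85% of all genes. Between 1 and 5 FPKM, 0 of 21 members were higher and 3 were lower, where 8.27% and 9.62% of all genes in the class were. With so few members, 0 of 21 lies near the share of that class and is not read as a trait of the family. In the authors' deposited table, which compares these libraries and not the genotypes, 0 of the 47 members tested there are marked significant, as are 68 of all 14613 genes tested. The lowest q-value of a member in the authors' deposited table is 0.338, for cyp1a.

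**Figure D1:**
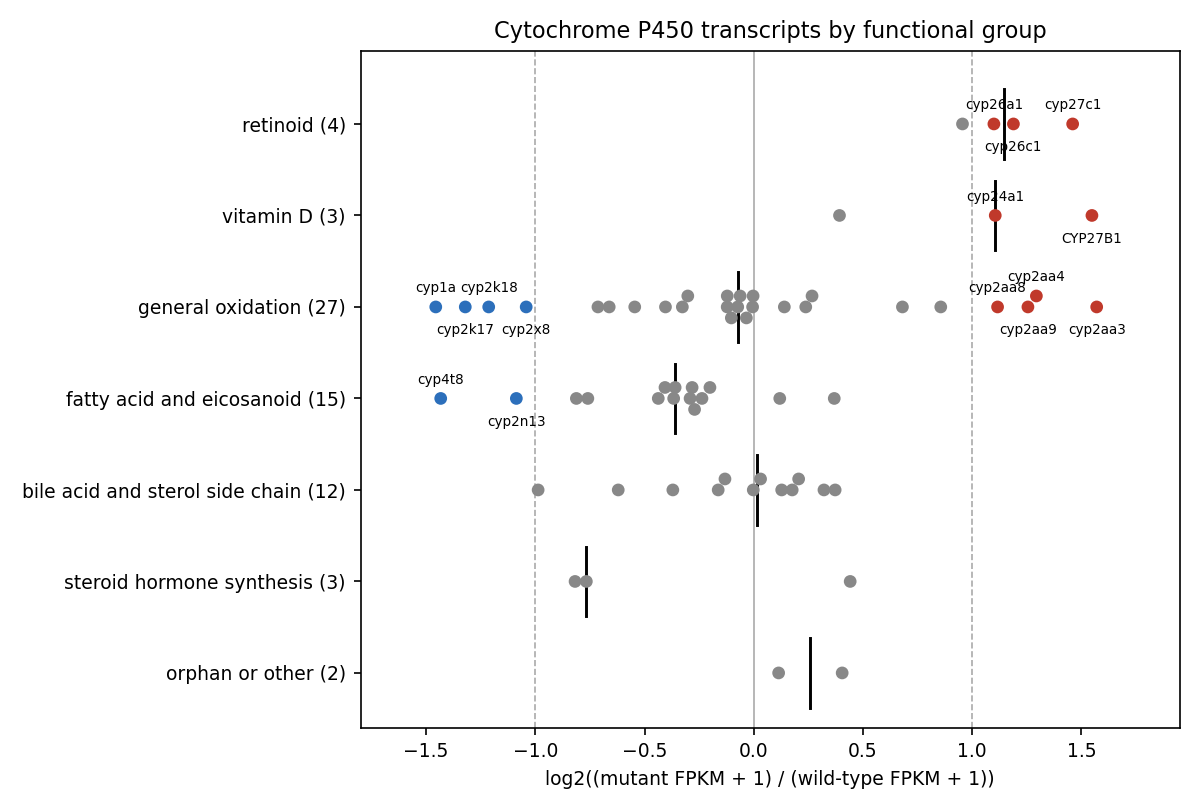
Difference of each P450 member compared, as log2((mutant FPKM + 1)/(wild-type FPKM + 1)), by functional group, with the number of members in parentheses. Each point is 1 gene, black bars are group medians, dashed lines mark a 2-fold difference, and members beyond them are named. The 4 retinoid members sit between 0.96 and 1.46, and the 15 fatty acid members lie mostly left of 0.

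The retinoid group had the highest median of the functional groups, at 1.14, and all 4 members compared lay above 0. Of all 20256 genes compared, 9920 lay above 0. The 3 Cyp26 enzymes hydroxylate retinoic acid and so clear it, and each has its own domains in the embryo. Transcripts of cyp26a1 (ENSDARG00000033999, Zv9 chromosome 12, 9708963 to 9712555) stood at 18.3 FPKM in the mutant library and 7.99 FPKM in the wild-type library, a ratio of 2.29. Those of cyp26b1 (chromosome 7, 26490839 to 26515694) stood at 18.2 FPKM in the mutant and 8.88 FPKM in the wild type. This ratio of 2.05 fell just short of the 2-fold count on the log2(FPKM + 1) scale, at 0.96. For cyp26c1 (chromosome 17, 19343724 to 19365481) the values were 5.95 FPKM in the mutant and 2.05 FPKM in the wild type. A second identifier with the symbol cyp26c1 at the same locus was listed at 0 in both libraries. Summed over the Cyp26 genes, the level was 42.4 FPKM in the mutant library and 18.9 FPKM in the wild-type library, 2.24 times as much. The ratios of the 3 genes ran from 2.05 for cyp26b1 to 2.90 for cyp26c1, the one of lowest level.

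The remaining member, cyp27c1, encodes the enzyme that converts vitamin A1 to vitamin A2, a step known from the retinal pigment epithelium of fish. It stood at 16.7 FPKM in the mutant library and 5.44 FPKM in the wild-type library, 3.07-fold higher. Its locus on chromosome 6 (8096617 to 8158549) is shared in the table with the DNA repair helicase gene ercc3, at 11.4 FPKM in the mutant and 8.11 FPKM in the wild type, so reads may have been divided between them. With a pseudocount of 5 FPKM 1 of the 4 retinoid members remained at least 2-fold higher, cyp27c1, beside 296 of all 20256 genes. Without genes at a shared locus cyp26a1 and cyp26b1 were left, and cyp26a1 was counted as 2-fold higher.

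Other genes of retinoid handling were read from a list of 29 matched genes, of which 27 were compared. Beside shares of 6.08% higher and 7.12% lower over all genes, 3 of these were higher and 1 was lower by 2-fold or more in the mutant. The median of the 27 was 0.11, with 14 above 0 and 13 below 0. The higher ones were dhrs3a, a reductase that returns retinal to retinol, at 20.1 FPKM in the mutant and 7.62 FPKM in the wild type, and the cellular retinoic acid binding genes crabp1b, at 19.9 FPKM in the mutant and 7.41 FPKM in the wild type, and crabp2b, at 40.9 FPKM in the mutant and 18.4 FPKM in the wild type. The lower one was rbp4l, a relative of the plasma retinol carrier, at a shared locus, with 89.9 FPKM in the mutant and 290 FPKM in the wild type. The summed level of the list was 1651 FPKM in the mutant and 2344 FPKM in the wild type. Its most abundant gene, rbp4, also at a shared locus, was at 790 FPKM in the mutant and 1234 FPKM in the wild type. Synthesis of retinoic acid is carried out by aldehyde dehydrogenases, and the main embryonic one, aldh1a2, stood at 34.3 FPKM in the mutant and 22.2 FPKM in the wild type, short of 2-fold and at a shared locus. The retinoic acid receptor genes raraa, rarab and rarga lay between -0.13 and 0.08, with rarga at a shared locus. Also at a shared locus, rargb was at 1.26 FPKM in the mutant and 2.17 FPKM in the wild type, a difference of -0.49.

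All 3 vitamin D members lay above 0, with a median of 1.11, and 2 were at least 2-fold higher. Over all 20256 genes compared, 9920 lay above 0 and 6.08% were at least 2-fold higher. CYP27B1 (ENSDARG00000045015, chromosome 11, 316560 to 326099), whose enzyme makes the active hormone, stood at 12.1 FPKM in the mutant library and 3.47 FPKM in the wild-type library. This ratio of 3.48 was the second highest among the members compared. For cyp24a1 (chromosome 6, 55692362 to 55705674), whose enzyme inactivates the hormone, the values were 13.2 FPKM in the mutant and 5.60 FPKM in the wild type, a ratio of 2.36. The liver enzyme of the preceding activation step, cyp2r1, stood at 19.2 FPKM in the mutant and 14.4 FPKM in the wild type, short of 2-fold and at a locus shared with the calcitonin gene calca. The vitamin D receptor gene vdrb was at 6.29 FPKM in the mutant and 8.57 FPKM in the wild type. At a pseudocount of 5 FPKM 1 of the 3 vitamin D members remained at least 2-fold higher, CYP27B1, beside 296 of all 20256 genes.

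**Figure D2:**
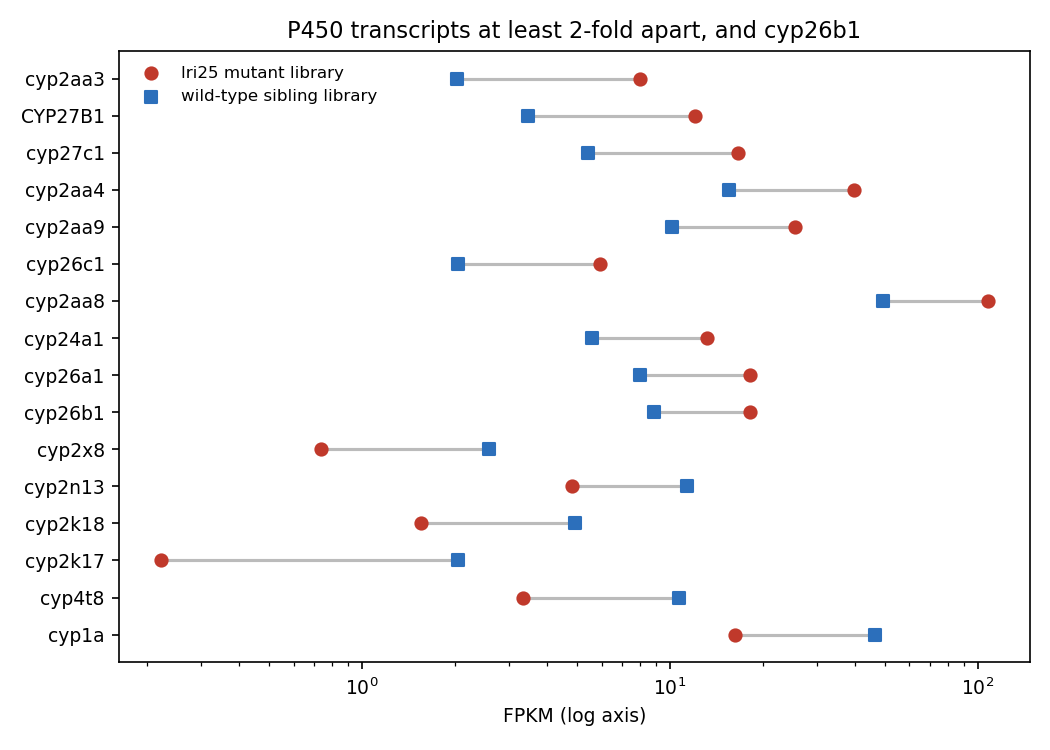
FPKM on a log axis in the lri25 mutant library (circles) and the wild-type sibling library (squares) for the 15 members at least 2-fold apart and for cyp26b1, ordered by difference. The mutant lies to the right for the 10 upper genes and to the left for the 6 lower ones, of which cyp1a has the highest level.

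The general oxidation group, families 1 to 3 apart from fatty acid and vitamin D enzymes, held 38 members, of which 27 were compared. Of these 4 passed 2-fold upward and 4 passed it downward, around a median of -0.07. All 4 higher ones were cyp2aa genes, a subfamily singled out after its values were seen. Without cyp2aa, 0 of 18 members were higher, which follows from leaving out all the higher ones. In that remainder 4 were lower, with a median of -0.21. Over all genes compared 6.08% were higher and 7.12% lower. Of the lower members, cyp2k17, cyp2k18 and cyp2x8 lay between 1 and 5 FPKM, where 9.62% of all genes were lower.

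In family 1, cyp1a (ENSDARG00000026039, chromosome 18, 4974676 to 4985566) stood at 16.3 FPKM in the mutant library and 46.5 FPKM in the wild-type library, 2.85-fold lower. Its difference of -1.46 was the lowest of the family. Of its 4 relatives 2 were compared, and neither was 2-fold apart. The oestrogen- and hydrocarbon-oxidising cyp1b1 was at 1.34 FPKM in the mutant and 1.54 FPKM in the wild type, cyp1d1 was at 13.5 FPKM in the mutant and 11.1 FPKM in the wild type, and cyp1c1 and cyp1c2, both on unplaced scaffolds, were listed at 0 in both libraries. Among the genes that control cyp1a, the zebrafish receptor that mediates most of its induction, ahr2, was at 14.8 FPKM in the mutant and 10.5 FPKM in the wild type, at a shared locus. Its relatives ahr1a and ahr1b were at 0.256 and 1.52 FPKM in the mutant and at 1.91 and 4.95 FPKM in the wild type. The repressor gene ahrrb was at 0.199 FPKM in the mutant and 1.56 FPKM in the wild type, and tiparp, another target of the receptor, was at 33.6 FPKM in the mutant and 22.6 FPKM in the wild type. Among cyp1a, ahrrb and tiparp, cyp1a and the weakly expressed ahrrb were lower and tiparp lay above 0 by 0.56. Targets of the receptor were not tallied as a set. Whether activity of the receptor differed was not tested.

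In family 3, whose enzymes oxidise drugs and steroids in liver and gut, all 4 members lay below 0 and none reached 2-fold. The most abundant, cyp3a65, stood at 43.3 FPKM in the mutant and 71.6 FPKM in the wild type, and cyp3c1 at 47.1 FPKM in the mutant and 48.2 FPKM in the wild type. The remaining pair, cyp3c1l2 and cyp3c4, were at 9.11 and 5.80 FPKM in the mutant and at 11.5 and 9.75 FPKM in the wild type. The gene of the xenobiotic receptor that controls cyp3a65, nr1i2, was at 13.2 FPKM in the mutant and 14.6 FPKM in the wild type.

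The 10 cyp2aa genes, a fish subfamily, lie side by side on chromosome 23 (42822579 to 43024136), a stretch of 202 kb. Of 9 compared, 4 were at least 2-fold higher in the mutant library, 6 were above 0 and 0 were at least 2-fold lower, with a median of 0.86. Over all 20256 genes compared, 6.08% were at least 2-fold higher, 7.12% were lower and 9920 genes lay above 0. The subfamily was singled out after its values were seen, so its counts are no test. The most abundant, cyp2aa8, stood at 108 FPKM in the mutant and 49.4 FPKM in the wild type, a ratio of 2.19. Next to it, cyp2aa4 stood at 39.5 FPKM in the mutant and 15.5 FPKM in the wild type, a ratio of 2.55. At one end of the stretch, cyp2aa3 stood at 8.01 FPKM in the mutant and 2.04 FPKM in the wild type, and its ratio of 3.94 was the highest of the members compared. The fourth, cyp2aa9, was at 25.6 FPKM in the mutant and 10.1 FPKM in the wild type. Short of 2-fold, their neighbours cyp2aa6 and cyp2aa1 were at 19.8 and 16.9 FPKM in the mutant and at 10.5 and 10.2 FPKM in the wild type. The other members of the stretch did not follow, with cyp2aa12 at 9.51 FPKM in the mutant and 12.2 FPKM in the wild type, cyp2aa7 at 7.86 FPKM in the mutant and 8.52 FPKM in the wild type, and cyp2aa2 at 2.78 FPKM in the mutant and 3.11 FPKM in the wild type. The last member, cyp2aa11, was under 1 FPKM in both libraries. Higher and near-equal genes were interspersed along the stretch.

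Reads from such similar neighbours can be assigned to the wrong copy, and 5 of the 10 genes share a locus with another member, which leaves single levels uncertain. The sum over the stretch came to 239 FPKM in the mutant library and 122 FPKM in the wild-type library, a ratio of 1.96. A gene at the same locus as cyp2aa1, cyp2aa2 and cyp2aa9, si:dkey-12m15.4, is not in the sum and was at 0.812 FPKM in the mutant and listed at 0 in the wild type. No other cluster reached that ratio. Sums over the 7 others were 0.766 to 0.998 times the wild-type sum in the mutant. At a pseudocount of 5 FPKM 3 of the 9 cyp2aa genes remained at least 2-fold higher, cyp2aa4, cyp2aa8 and cyp2aa9, beside 296 of all 20256 genes.

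**Figure D3:**
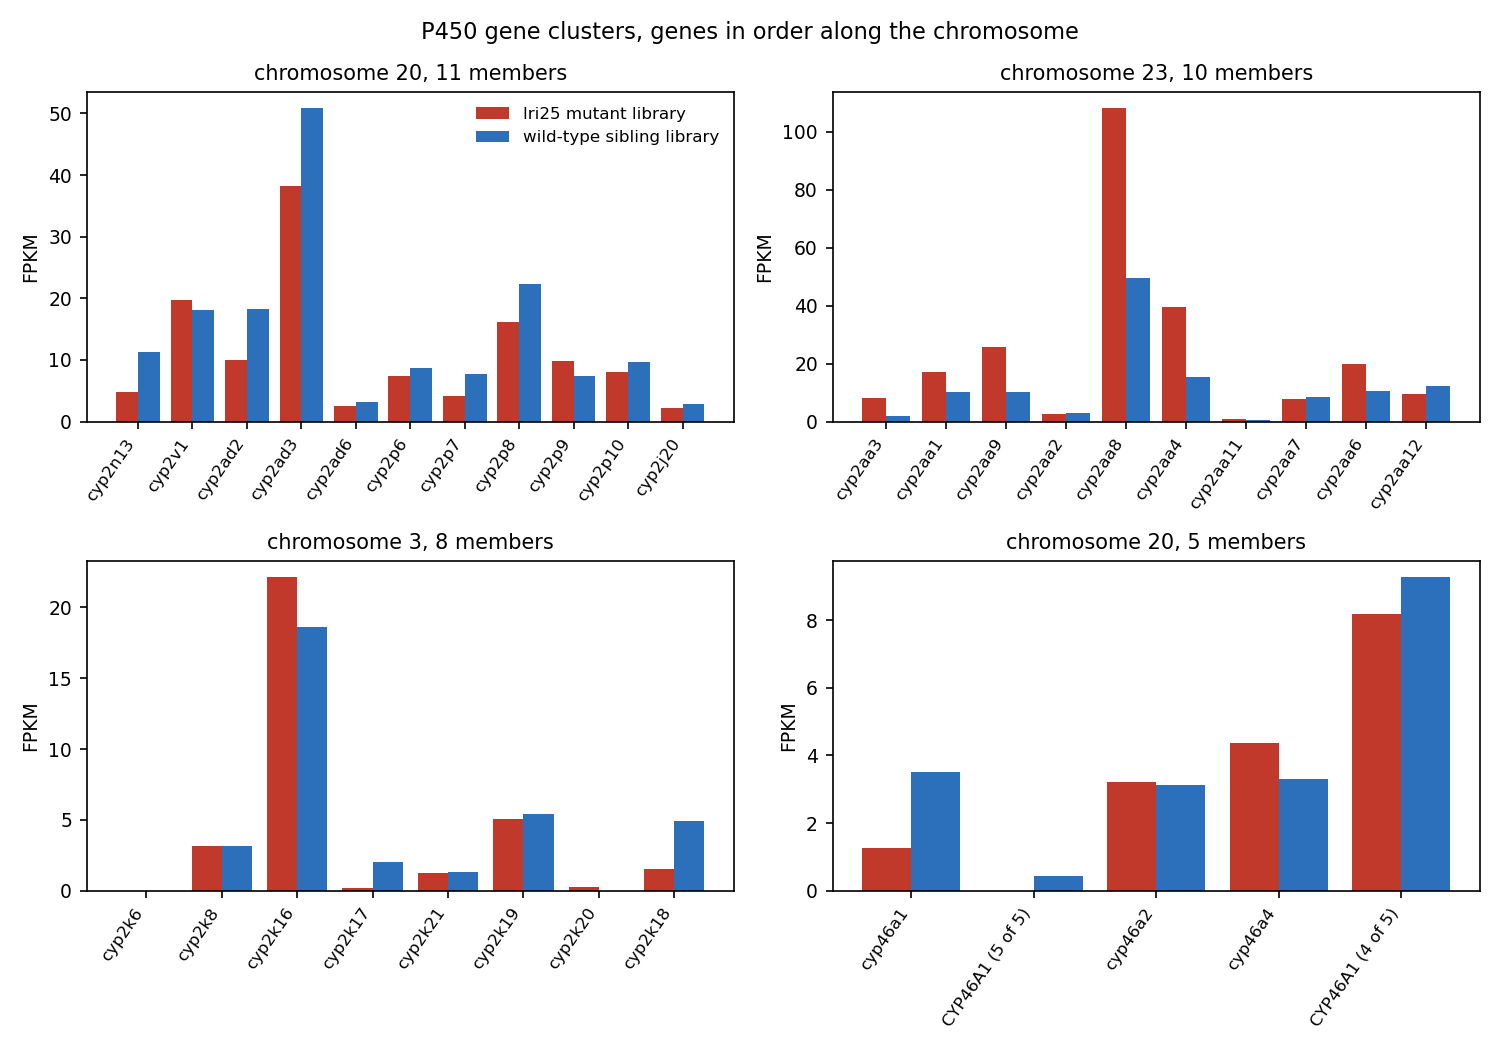
FPKM of each gene in the 4 largest P450 clusters, in the lri25 mutant library (left bar) and the wild-type sibling library (right bar), with genes in order along the chromosome. On chromosome 23 the mutant bars are higher for cyp2aa3, cyp2aa1, cyp2aa9, cyp2aa8, cyp2aa4 and cyp2aa6, and for cyp2aa11, which is under 1 FPKM in both libraries. In the cluster of 11 on chromosome 20 they are lower for 9 genes.

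In the other cyp2 subfamilies of this group that were compared, the most abundant member of each showed a small difference. The broad oxidase gene cyp2y3 stood at 72.1 FPKM in the mutant and 65.3 FPKM in the wild type. Of 10 cyp2k genes 6 were compared and 2 were at least 2-fold lower. The most abundant of them, cyp2k16, was at 22.2 FPKM in the mutant and 18.6 FPKM in the wild type. The lower ones were cyp2k18, at 1.56 FPKM in the mutant and 4.93 FPKM in the wild type, and cyp2k17, at 0.222 FPKM in the mutant and 2.05 FPKM in the wild type. Of 7 cyp2x genes 4 were compared and all lay below 0. Among these cyp2x8 was at least 2-fold lower, at 0.737 FPKM in the mutant and 2.58 FPKM in the wild type, while cyp2x7 was at 15.4 FPKM in the mutant and 15.5 FPKM in the wild type. Next to cyp2x7 in level, cyp2x9 was at 8.44 FPKM in the mutant and 12.8 FPKM in the wild type, a difference of -0.54.

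The depth behind these low values is known only in part. In 206 of 510 genes that lay under 0.5 FPKM in each library, the mutant level was 0.7 to 0.83 times that of the wild type. The window of 0.7 to 0.83 was set by hand, and a median taken inside it must lie within it. That median was 0.765, the ratio that 1 fragment in each library gives if the mutant library was 1.31 times deeper. The depth ratio is therefore no estimate from all 510 genes. Library totals were not used here, so fragment counts were not recovered and no counting interval was computed.

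Fatty acid and eicosanoid enzymes lay mostly below 0 in the mutant library, with a median of -0.36, 13 of 15 members compared below 0, 2 at least 2-fold lower and 0 higher. Of all 20256 genes compared, 10336 lay below 0, 7.12% were at least 2-fold lower and 6.08% higher. Of the 13 members below 0, 9 were neighbours in a cluster on chromosome 20, so the 13 are not separate observations. Family 4 enzymes hydroxylate the end of fatty acid chains. Of these cyp4t8 stood at 3.34 FPKM in the mutant and 10.7 FPKM in the wild type, 3.21-fold lower, at a locus shared with arnt, the partner gene of the aryl hydrocarbon receptor, which was at 5.64 FPKM in the mutant and 5.65 FPKM in the wild type. The most abundant family 4 gene, cyp4v8, was at 28.6 FPKM in the mutant and 37.1 FPKM in the wild type.

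The fish relatives of the mammalian arachidonic acid epoxygenase CYP2J2 form a cluster of 11 members on chromosome 20 (25544866 to 25645409). Of these cyp2n13 was at least 2-fold lower, at 4.81 FPKM in the mutant and 11.3 FPKM in the wild type. The most abundant, cyp2ad3, was at 38.2 FPKM in the mutant and 50.9 FPKM in the wild type. Its neighbours cyp2ad2 and cyp2p8 were at 9.99 and 16.2 FPKM in the mutant and at 18.3 and 22.2 FPKM in the wild type. Those above 0 were cyp2p9, at 9.80 FPKM in the mutant and 7.37 FPKM in the wild type, and cyp2v1, at 19.8 FPKM in the mutant and 18.2 FPKM in the wild type. The genes cyp2v1, cyp2ad2, cyp2ad3 and cyp2ad6 share a locus, and that of cyp2j20 is shared with si:dkey-183n20.2. Reads may have been divided between such genes, which leaves their single levels uncertain. The sum over the cluster was 123 FPKM in the mutant library and 160 FPKM in the wild-type library, a ratio of 0.766. At a pseudocount of 5 FPKM 0 of the 15 fatty acid members were 2-fold apart and the median was -0.17. Of all 20256 genes 296 were then higher and 361 lower.

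Enzymes of bile acid synthesis and of the sterol side chain showed 0 of 12 members compared at least 2-fold apart, beside 13.2% of all genes. The median of the 12 was 0.01, with a range from -0.99 to 0.37. The gene of the rate-limiting liver enzyme, cyp7a1a, stood at 28.3 FPKM in the mutant and 36.9 FPKM in the wild type. The gene of the sterol hydroxylase that sets the ratio of bile acid types, cyp8b1, stood at 12.8 FPKM in the mutant and 20.2 FPKM in the wild type. The 6 cyp27a genes, copies of the mitochondrial sterol hydroxylase, lay between -0.13 and 0.37, with CYP27A1 (5 of 6) at 15.3 FPKM in the mutant and 13.1 FPKM in the wild type. The cholesterol hydroxylase of neurons is encoded by 5 cyp46a genes in zebrafish. Of these cyp46a1 was at 1.27 FPKM in the mutant and 3.50 FPKM in the wild type, and CYP46A1 (4 of 5) at 8.19 FPKM in the mutant and 9.28 FPKM in the wild type. In plain FPKM cyp46a1 was 2.76-fold lower, but it fell just short of the 2-fold count on the log2(FPKM + 1) scale, at -0.99.

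Other genes of bile acid handling, 17 compared, had a median of 0.24. Beside shares of 6.08% and 7.12% over all genes, 1 of the 17 was at least 2-fold higher and 0 were lower. The higher gene was nr0b2a, the corepressor known in mammals as SHP, which represses Cyp7a1 in mammalian liver. It stood at 19.6 FPKM in the mutant and 3.68 FPKM in the wild type, a ratio of 5.31. Its relative nr0b2b, not in this list and too low to be compared, was listed at 0 in the mutant and at 0.869 FPKM in the wild type. The bile acid receptor gene nr1h4 was at 3.65 FPKM in the mutant and 5.49 FPKM in the wild type, and slc51a, a bile acid exporter subunit, at 64.0 FPKM in the mutant and 41.2 FPKM in the wild type. Of 10 hepatocyte markers 8 lay above 0 and 2, rbp4 and ttr, below 0, with a median of 0.48 and none listed at 0 FPKM. Their summed level was 11823 FPKM in the mutant and 8584 FPKM in the wild type. Most of that sum was apoa2, at 8128 FPKM in the mutant and 5318 FPKM in the wild type. Of 8 enterocyte markers 4 lay above 0, with a sum of 1367 FPKM in the mutant and 1570 FPKM in the wild type. Their median of -0.12 turned to 0.20 without genes at a shared locus and was -0.39 with a floor of 5 FPKM. The fatty acid carrier gene fabp2 was the 1 enterocyte marker at least 2-fold apart, at 288 FPKM in the mutant and 591 FPKM in the wild type. In whole larvae fewer cells of a type and less RNA per cell cannot be told apart, and the part of these tissue markers in the P450 differences was not tested.

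Steroid hormone genes were at low levels in both libraries. Of 8 members 3 were compared, 3 others were above 0 and below 1 FPKM and 2 were listed at 0 in both libraries. The values of cyp17a1, the hydroxylase on the way to cortisol and sex steroids, were 2.39 FPKM in the mutant and 1.497 FPKM in the wild type. The last enzyme of cortisol synthesis, cyp11c1, was at 0.227 FPKM in the mutant and 1.16 FPKM in the wild type, and cyp17a2 at 0.205 FPKM in the mutant and 1.05 FPKM in the wild type. Side-chain cleavage of cholesterol, the entry step, was represented by cyp11a1, listed at 0 in both libraries, and by CYP11A1 (2 of 2), listed at 0 in the mutant and at 0.234 FPKM in the wild type. The hydroxylase gene cyp21a2 was at 0.715 FPKM in the mutant and 0.300 FPKM in the wild type. Of the aromatase genes, the brain form cyp19a1b was at 0.420 FPKM in the mutant and listed at 0 in the wild type, and the ovarian form cyp19a1a was listed at 0 in both.

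The median of the 3 steroid members compared was -0.77, the value of cyp17a2, which lies at a shared locus. This median was -0.19 without genes at a shared locus and 0.05 over 6 members with no floor. Of 6 markers of steroid-producing cells 3 were compared, all below 0, with summed levels of 7.45 FPKM in the mutant and 11.4 FPKM in the wild type, and mc2r, the corticotropin receptor gene, was listed at 0 in both. The cholesterol carrier gene star, the most abundant of them, was at 4.98 FPKM in the mutant and 7.61 FPKM in the wild type. Of 8 radial glia markers, the cells that express cyp19a1b in fish brain, 3 lay above 0, with a median of -0.15 and summed levels of 1189 FPKM in the mutant and 943 FPKM in the wild type. The higher sum came from fabp7a, at 808 FPKM in the mutant and 541 FPKM in the wild type, and slc1a3b, at 103 FPKM in the mutant and 24.5 FPKM in the wild type. Of the 5 glia markers below 0, gfap was the lowest, at 31.8 FPKM in the mutant and 59.4 FPKM in the wild type. Among 19 steroid pathway partners compared 1 was at least 2-fold higher and 1 lower, 5.26% each way, beside 6.08% and 7.12% of all genes. The higher one was srd5a2b, at a shared locus, with 2.14 FPKM in the mutant and listed at 0 in the wild type. Leaving out genes listed at 0, or genes at a shared locus, left 0 partners higher. The lower one was hsd17b7, at 2.28 FPKM in the mutant and 7.10 FPKM in the wild type.

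**Figure D4:**
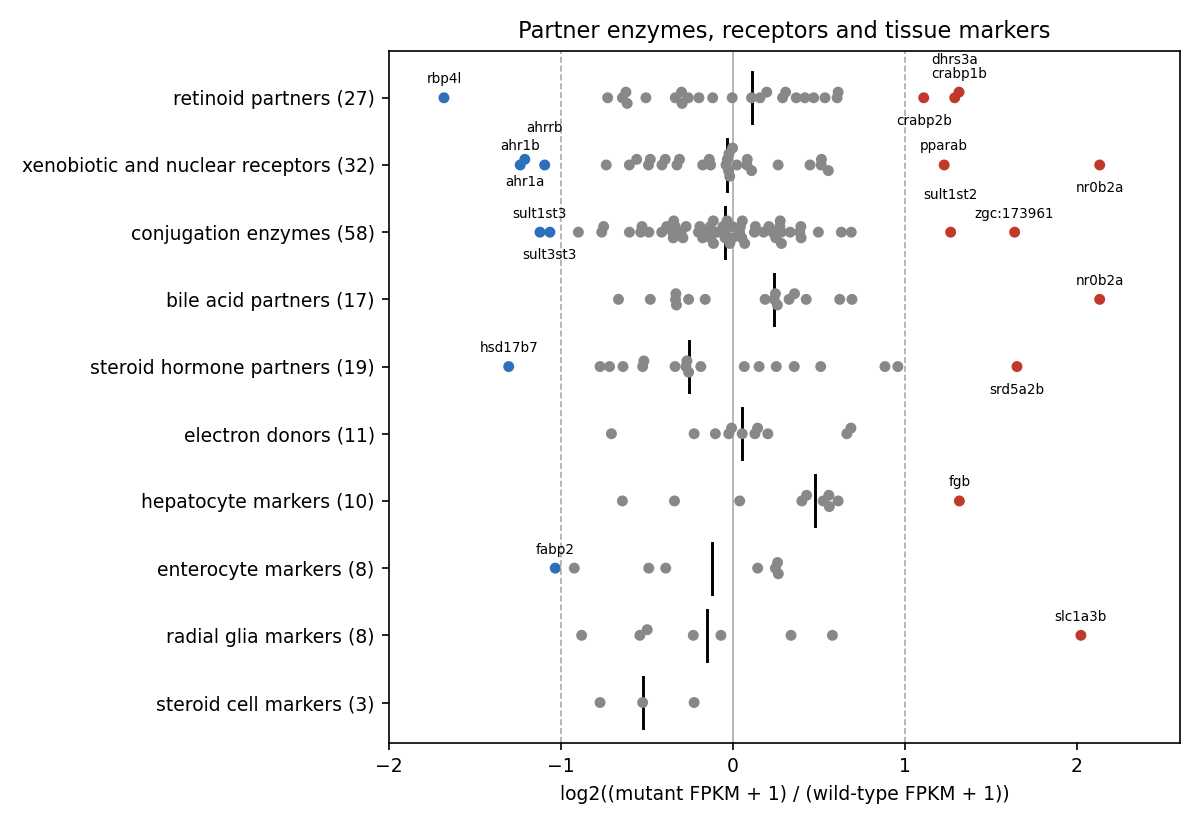
Difference of each gene in 10 lists of P450 partners, receptors and tissue markers, as log2((mutant FPKM + 1)/(wild-type FPKM + 1)), with the number of genes compared in parentheses. Points are genes, black bars list medians, and genes beyond the dashed 2-fold lines are named. The medians lie between -0.53 for steroid cell markers and 0.48 for hepatocyte markers.

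Of 11 genes for enzymes that feed electrons to P450 members 0 were at least 2-fold apart, beside 13.2% of all genes. The median of the 11 was 0.05, with a range from -0.71 to 0.69. The reductase gene por was at 34.3 FPKM in the mutant and 34.9 FPKM in the wild type, the ferredoxin gene fdx1 at 93.8 FPKM in the mutant and 101 FPKM in the wild type, and the cytochrome b5 gene cyb5a at 83.7 FPKM in the mutant and 80.6 FPKM in the wild type. Farthest apart were cyb5b, at 24.9 FPKM in the mutant and 15.1 FPKM in the wild type, and the cytochrome b5 reductase gene cyb5r2, at 11.1 FPKM in the mutant and 18.8 FPKM in the wild type. Conjugation enzymes attach sugars, sulphate or glutathione to P450 products, and their list also held other enzymes such as nqo1 and ephx1. Its median was -0.05, and of 58 compared 2 passed 2-fold upward and 2 passed it downward. A glutathione transferase listed as zgc:173961 was at 46.9 FPKM in the mutant and 14.4 FPKM in the wild type, and the sulphotransferase genes sult1st2 and sult1st3 were at 4.93 and 7.85 FPKM in the mutant and at 1.46 and 18.3 FPKM in the wild type. The receptor list held 32 compared genes, some of them not receptors, such as the partner arnt, the repressor ahrrb and the target tiparp. Of these 2 passed 2-fold upward and 3, ahrrb among them, passed it downward, around a median of -0.04. The shares higher and lower were 6.25% and 9.38% of the receptor list and 3.45% each way of the conjugation list. Over all genes they were 6.08% and 7.12%.

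The members without an assigned role were cyp20a1, an orphan enzyme, at 21.8 FPKM in the mutant and 16.2 FPKM in the wild type, and cyp7c1, at 8.31 FPKM in the mutant and 7.60 FPKM in the wild type. Over the whole family the summed level was 910 FPKM in the mutant library and 866 FPKM in the wild-type library, 0.110% of all FPKM of the mutant and 0.104% of all FPKM of the wild type. The order of the most abundant members differed. In the mutant library it ran from cyp2aa8 at 108 FPKM through cyp2y3, cyp3c1 and cyp3a65 to cyp2aa4 at 39.5 FPKM. In the wild-type library it ran from cyp3a65 at 71.6 FPKM through cyp2y3, cyp2ad3, cyp2aa8 and cyp3c1 to cyp1a at 46.5 FPKM.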

How the data were processed

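Total RNA from 1 pool of 20 whole larvae per genotype was extracted with an RNeasy kit and sequenced on Illumina libraries, per the labels' protocols. Zv9, CASAVA and Bowtie are named in the submitters' processing notes; sources used here name no program for the levels. The deposited values were taken as FPKM per gene from the table's layout and values, since neither the labels nor the file headers name the unit. The libraries named HKWT and HKMT in the table were taken as wild type and mutant. The authors also deposited p-values and q-values of library against library, of which q-values were used. The first identifier column is out of register with the symbols (0 of 21937 identifiers found carried the printed symbol), so the second was used (14491 of 21934). Of the 87 members, 60 identifiers were found in the reference table of symbols and 40 carried the same symbol there. Positions are 1-based in Zv9, with starts in the file counted from 0.

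The pseudocount was 1 FPKM, the floor 1 FPKM in at least 1 library, and clusters joined members within 150 kb. The table was read with pandas 2.3.3 under Python 3.11.15, and the calculation of differences was tested on simulated data with known answers. Those data held no counting noise and changed only well-expressed genes, so they check the arithmetic and not the reliability of a difference. Of 256 entries in the 10 partner and marker lists, 215 were matched, giving 204 genes. The members and lists were chosen with earlier results of these data known. Members at least 2-fold apart and the 3 of highest level in each group were to be named, the others by range, with further names added for their role. The alternatives were other pseudocounts and floors, leaving out genes listed at 0 or at a shared locus, and centring. The number of libraries, 1 per group, limits every comparison.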

Additional observations from a re-analysis of the deposited data

How the results depend on the processing

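Centring on the median of all genes, no floor and leaving out genes listed at 0 each kept 15 of the 15 members at least 2-fold apart. A floor of 5 FPKM left 12 of them to be measured and leaving out genes at a shared locus left 11, and all of these kept their side. A pseudocount of 0.1 kept 15 and added 4, and a pseudocount of 5 kept 6. No member changed direction among those 2-fold apart, but this was fixed in advance. Floors and left-out genes do not alter the value of a gene that stays, and no pseudocount can turn the sign of a difference. Centring only took off the median of all genes, -0.01. The kept directions are therefore no check of the differences.

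With a pseudocount of 0.1, 1866 of all genes were at least 2-fold higher and 2219 lower, 1 bile acid member and 2 steroid members were lower with a steroid median of -1.91, steroid partners had 2 higher and 2 lower, conjugation enzymes had 4 lower and steroid cell markers 1 lower. With a pseudocount of 5, 296 of all genes were higher and 361 lower. The family then had 5 higher and 1 lower, general oxidation 1 lower, fatty acid members 0 lower with a median of -0.17, retinoid members 1 higher, vitamin D members 1 higher and Cyp26 genes 0 higher, and the steroid median was -0.22. Among the lists, the receptor list had 1 higher and 0 lower, steroid partners 0 and 0, and retinoid partners 1 higher. The conjugation list had 1 higher and 0 lower, and the steroid cell median was -0.24.

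With a floor of 5 FPKM, 612 of all genes were higher and 721 lower, the family had 3 lower and general oxidation 1 lower. The receptor list then had 1 higher and 0 lower, steroid partners 0 higher and conjugation enzymes 1 higher and 1 lower. Medians at that floor were -0.15 for bile acid members and -0.39 for enterocyte markers. With no floor the medians were 0.048 for steroid members, -0.039 for steroid partners and -0.23 for steroid cell markers. Without genes listed at 0, 797 of all genes were higher, with 1 gene of the receptor list and 0 steroid partners. Without genes at a shared locus, 1 fatty acid member was lower, 1 retinoid member and 1 Cyp26 gene were higher, steroid partners had 0 higher, retinoid partners 0 lower, conjugation enzymes 1 lower, and medians were -0.19 for steroid members, 0.043 for bile acid partners, -0.0042 for retinoid partners and 0.20 for enterocyte markers. The floor of 5 FPKM and the settings that leave genes out compare fewer genes, no floor compares more, and the pseudocounts weigh low genes differently. The cause of each shift was not tested.

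No paired analysis was possible because each genotype has 1 library. Counting error was not computed, so the precision of the steroid group and of members near 1 FPKM is unknown.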

Other observations

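Other P450 genes carry names outside the rule and were found by their symbols. The prostacyclin synthase gene ptgis stood at 8.76 FPKM in the mutant library and 3.80 FPKM in the wild-type library, a ratio of 2.31 and a difference of 1.02. The thromboxane synthase gene tbxas1 was at 12.1 FPKM in the mutant and 9.81 FPKM in the wild type. A gene listed as si:dkey-21n8.3, which the reference table of symbols names cyp3c2, lies between its cyp3c relatives on chromosome 3 and was at 0.588 FPKM in the mutant and 1.505 FPKM in the wild type.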
